A study of Mus musculus with 10 samples.

Results

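The 9 genes of heme synthesis and iron uptake examined here were Alas1, Alas2, Alad, Uros, Urod, Cpox, Ppox, Fech, and Tfrc. They were chosen by name from the authors' expression matrix, which held all 9 among its 15686 genes, and they are 9 of the 55487 genes of the count tables. Nuclear RNA-seq, in which RNA is taken from isolated nuclei and depleted of rRNA, had been performed on mouse ES cells of the HM-1 line and on 4 populations made from them in serum, which gave 5 stages with 2 libraries each. The ES cells were kept in 15% serum with 1000 U/ml LIF. HB cells (haemangioblast) were the FLK1+ cells of embryoid bodies grown for 3 d in a medium with 15% serum and 180 µg/ml human transferrin. HE1 (first stage of haemogenic endothelium, KIT+ TIE2+ CD41-), HE2 (second stage, KIT+ TIE2+ CD41+), and HP (haematopoietic progenitors, KIT+ TIE2- CD41+) were sorted after a further 2.5 d of blast culture with 10% serum, 180 µg/ml human transferrin, 5 ng/ml VEGF, and 10 ng/ml IL-6. All libraries came from one cell line. The methods list transferrin for the embryoid body and blast media and not for the ES medium, so that a difference between ES and any later stage cannot be told apart from this change of medium.

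Heme is built from glycine and succinyl-CoA in a pathway that starts and ends in mitochondria. 5-aminolevulinate synthase catalyses the first and rate-limiting step, and mammals have 2 genes for it: Alas1, which is active in nearly all cells and is repressed by heme, and Alas2, an X-linked gene of the erythroid lineage. Alad, Uros, Urod, Cpox, Ppox, and Fech encode enzymes of later steps, named here in the order in which they act, of which Fech inserts iron into protoporphyrin. Tfrc encodes transferrin receptor 1, through which cells take up iron bound to transferrin. Proliferating cells of any kind use it, and erythroid precursors carry it at high density. Alas2 and Tfrc mRNAs are also known for iron-responsive elements, hairpins bound by the iron regulatory proteins. In Alas2 the element lies ahead of the coding sequence, where binding holds back translation when iron is low. In Tfrc several lie behind it, where binding slows decay of the mRNA in the cytoplasm. Nuclear RNA was measured here, so neither translation nor cytoplasmic decay could be read from these values.

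These elements are shown because they set Alas2 and Tfrc apart from the other 7 genes in sequence. In GENCODE transcripts of the mouse reference genome, a search for a C, 5 bases, the loop CAGTG followed by a base other than G, and 5 bases pairing with the first 5 (G with T allowed) gave 1 element before the coding sequence of Alas2, 4 after that of Tfrc, and none in the other 7. The pattern occurred in 222 of 21877 protein-coding genes (1.01%), and a match of letters is not a measured hairpin. Each is printed 5′ to 3′ as DNA with its loop in capitals.
Alas2: ttggttcgtcctCAGTGCagggcaacagg
Tfrc, element a: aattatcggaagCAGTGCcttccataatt
Tfrc, element b: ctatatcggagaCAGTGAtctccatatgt
Tfrc, element c: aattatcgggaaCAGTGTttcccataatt
Tfrc, element d: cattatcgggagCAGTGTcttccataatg

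Promoters were compared next, because several members moved together in the later stages. RefSeq start sites (GRCm38.p6) were at hand for 8 of the 9 genes, in 12 windows of 250 bases upstream of a start. A GATA word (GATA after A or T and before A or G, on either strand), the letters read by GATA1, was found in the windows of Alas2 and Cpox and in 1 of the 2 windows of Uros. Of all 32851 windows in the reference table, 26.5% held one. The Cpox window and that window of Uros held 2 such words each, as 6.40% of windows held 2 or more, and those of Cpox share a base. The E-box CACGTG was found in both windows of Alad, in that of Urod, and in 1 of Uros, against 6.02% of all windows. The letters CACCC on either strand, read by KLF1, were found in 7 of the 12 windows and in 52.0% of all windows. These words were chosen with the sequences already seen, and no binding was measured. The stretches ahead of Alas2 (chrX:150547167-150547374, plus strand), Cpox (chr16:58669958-58670207, plus strand), and Alad (chr4:62519919-62520159, minus strand) are printed 5′ to 3′ to show these words in place, with the GATA words in capitals in Alas2 and Cpox and the E-box in capitals in Alad.
Alas2: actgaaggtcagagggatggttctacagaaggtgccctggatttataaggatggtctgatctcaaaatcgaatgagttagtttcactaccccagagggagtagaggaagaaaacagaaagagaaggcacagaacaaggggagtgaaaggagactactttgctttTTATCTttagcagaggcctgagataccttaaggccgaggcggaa
Cpox: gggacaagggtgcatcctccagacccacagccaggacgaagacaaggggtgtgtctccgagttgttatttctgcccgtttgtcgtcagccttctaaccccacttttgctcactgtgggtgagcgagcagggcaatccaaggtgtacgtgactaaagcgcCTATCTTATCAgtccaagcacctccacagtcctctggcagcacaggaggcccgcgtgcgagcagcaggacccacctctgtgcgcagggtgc
Alad: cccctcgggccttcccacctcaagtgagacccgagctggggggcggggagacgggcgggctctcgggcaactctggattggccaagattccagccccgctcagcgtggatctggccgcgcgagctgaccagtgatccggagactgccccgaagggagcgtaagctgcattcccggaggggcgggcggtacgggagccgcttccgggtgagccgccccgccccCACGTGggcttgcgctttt

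Counts per library lay between 24920434 and 58782055, and levels are given as CPM, which is the count relative to the library total after TMM scaling, for replicates 1 and 2 in that order. A floor of 3 counts stood for 0.0532 to 0.126 CPM and covers counting error only. Replicate numbers name libraries, and p-values measure the spread between these libraries. The 2 libraries of a stage correlated with r between 0.967 and 0.994 across genes. The HE1 libraries stood furthest apart. Summed ES cell markers (5 genes) reached 6.48 and 66.7 CPM in the HE1 libraries, endothelial markers (6 genes) 3000.3 and 1797 CPM, and cardiac and smooth muscle markers (6 genes) 635 and 1001 CPM, and the part of these RNAs in the results was not tested. Tek, the gene of TIE2, stood at 564 and 294 CPM in HE1 and at 61.5 and 64.2 CPM in HP. Itga2b, the gene of CD41, stood at 227 and 127 CPM in the CD41- HE1 cells and at 505 and 469 CPM in HE2. In bulk samples, fewer cells of a type and less RNA per cell cannot be told apart.

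Each of the 9 genes differed over the 5 stages (edgeR quasi-likelihood F test, Benjamini-Hochberg adjusted p between 7.33e-07 for Fech and 0.0287 for Ppox), as 66.7% of the 22596 tested genes did. All 9 passed the filter on low counts. None of them shares exon bases with another gene on its strand. Their courses differed. Alas2, Alad, Uros, and Fech had their lowest mean in ES and their highest in HP, with every stage in between in order. Urod and Cpox were high in HB, low in HE1, and highest in HP. Ppox was lowest in HE1 and highest in HP. Alas1 was highest in HE1. Tfrc was highest in ES and lowest in HE1.

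**Figure D1:**
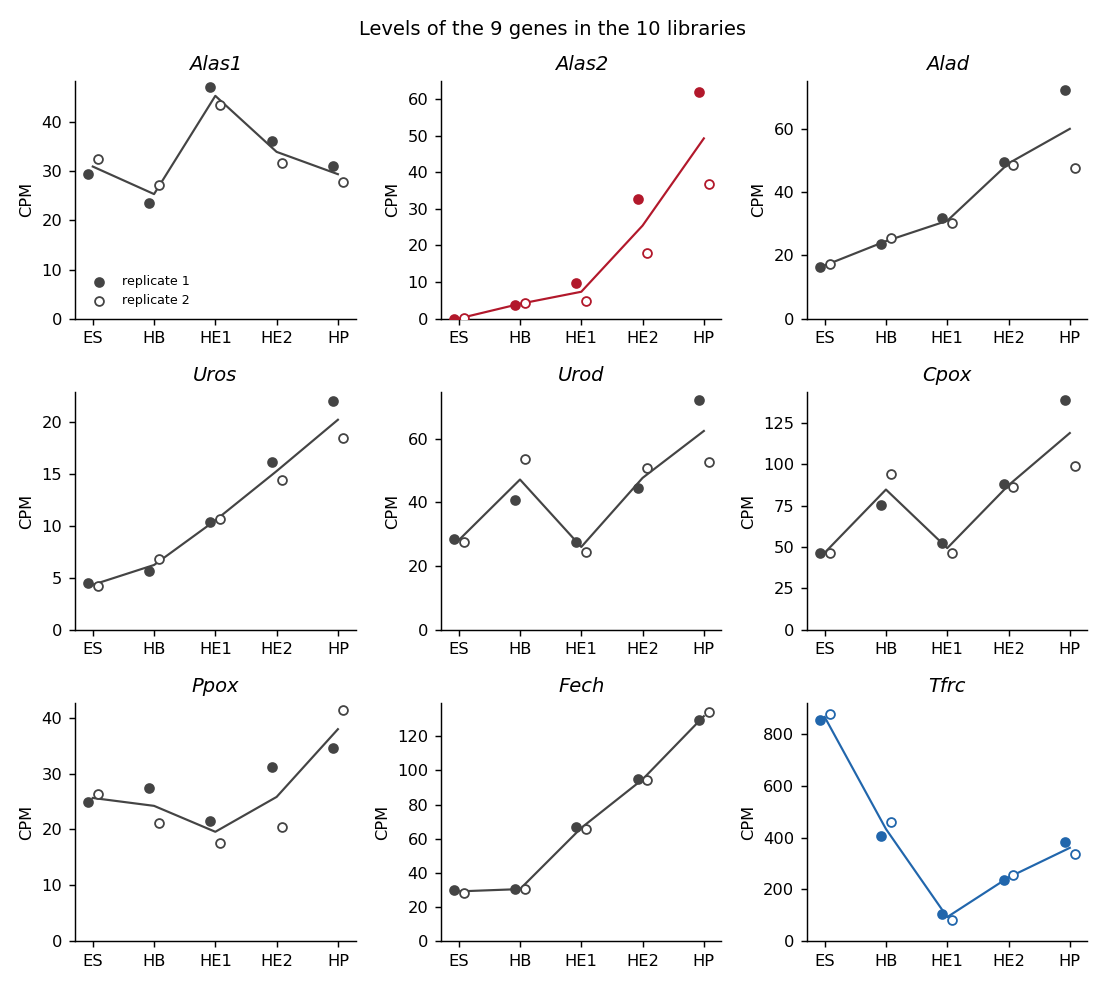
CPM (y axis, from 0) of each gene at the 5 stages (x axis), with filled points for replicate 1, open points for replicate 2, and a line through the stage means. Alas2 reaches 61.8 and 36.7 CPM in HP from 0.0177 and 0.0574 CPM in ES, while Tfrc has its minimum in HE1 at 104 and 80.3 CPM.

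Alas2 (ENSMUSG00000025270, chrX:150547375-150570638, plus strand, mm10), the erythroid isoform gene, had 1 and 2 counts in the ES libraries, which is below the floor, or 0.0177 and 0.0574 CPM. It stood at 3.77 and 4.34 CPM in HB, 9.80 and 4.89 CPM in HE1, 32.8 and 18.0 CPM in HE2, and 61.8 and 36.7 CPM in HP. No 2 neighbouring stages overlapped, although the libraries within HE1, HE2, and HP differed far more than those within HB. The step from ES to HB passed the test (edgeR, adjusted p = 4.22e-05). Pooled counts were 268 in HB against 3 in ES, a ratio of levels of 124 with a 95% counting interval of 42.0 to 605, and for HP against ES the ratio was 1560 (533 to 7568). HE1 did not pass against HB (log2 fold change 0.85 ± 0.40 SE, edgeR adjusted p = 0.126), but passed with no filter on low counts (0.84, edgeR adjusted p = 0.00945). Without HE1 replicate 2 that value was 1.28 and passed (edgeR, adjusted p = 0.0479), whereas without HE1 replicate 1 it was 0.22 (edgeR, adjusted p = 0.700). The rise from HE1 to HE2 was 1.80 ± 0.39 (edgeR, adjusted p = 0.0202), but 1.37 without HE1 replicate 2, which did not pass (edgeR, adjusted p = 0.115). From HE1 to HP the rise was 2.75 ± 0.40 (edgeR, adjusted p = 0.00112), or 6.74-fold. With each of the 10 libraries left out in turn, the rise from HE1 ranged from 1.32 to 2.40 for HE2 and from 2.33 to 3.36 for HP, highest in both without HE1 replicate 1. Alas2 was the 1 member of the 9 on the study's lists of genes linked to primed enhancers, and it was on the list for HE to HP. The study listed genes under 9 CPM at the first stage, taken as not expressed, that then rose at least 2-fold. In HE1 all other members lay above 9 CPM in both libraries, so this limit alone kept them off that list. Alas2 was below the limit but not absent in HE1, and 1 library stood above it at 9.80 CPM. The HE to HP list had been chosen on these same libraries, so the rise of Alas2 there is not independent evidence. The linked region has its midpoint 2.435 kb downstream of the annotated start, in an intron of Alas2.

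Alas1, the housekeeping isoform gene (chromosome 9), ran another way. It stood at 29.4 and 32.6 CPM in ES, 23.5 and 27.2 CPM in HB, 47.2 and 43.5 CPM in HE1, 36.2 and 31.7 CPM in HE2, and 31.1 and 27.8 CPM in HP. Both HE1 libraries lay above all 8 others. The rise from HB to HE1 was 0.84 ± 0.16 on the log2 scale (edgeR, adjusted p = 0.00294). The fall from HE1 to HP was -0.62 ± 0.16 (edgeR, adjusted p = 0.0162) and did not pass without HP replicate 1 (edgeR, adjusted p = 0.0650) or without HP replicate 2 (edgeR, adjusted p = 0.0948). HP and ES differed by -0.07 ± 0.16 (edgeR, adjusted p = 0.722).

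Divided by exon length, which is 2403 bases for Alas2 and 6174 bases for Alas1, the pair can be set side by side within a library. This length covers all annotated exons of a gene and can exceed that of the RNA present. The shares below depend on it. In ES, Alas2 made up 0.155% and 0.451% of the pair. It made up 29.2% and 29.1% of the pair in HB and 34.8% and 22.4% of it in HE1, but 69.9% and 59.4% of it in HE2 and 83.6% and 77.2% of it in HP. Each HB and HE1 library thus had more Alas1 than Alas2 per length, and each HE2 and HP library more Alas2. In HE2 this order rests on the division by length, since in CPM both HE2 libraries had more Alas1 than Alas2, and the mean log2 ratio without length was -0.48. The log2 ratio of Alas2 to Alas1 per length, from log2 CPM with a prior count of 2, was -1.27 ± 0.01 in HB (mean ± SD, n = 2 at each stage) and -1.34 ± 0.62 in HE1, whereas HE2 had 0.88 ± 0.47 and HP had 2.06 ± 0.42. In ES the prior count sets the ratio, since Alas2 had 1 and 2 counts there, so no value is given for it. The ratio differed over the 5 stages in an exact permutation test with the F statistic over all 113400 assignments of the 10 libraries (p = 0.00317, the smallest possible being 0.00106), and p was the same without a prior count. Without ES, an alternative added after the data were seen, it differed over the other 4 stages (exact permutation p = 0.0286 over 2520 assignments, the smallest possible being 0.00952).

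**Figure D2:**
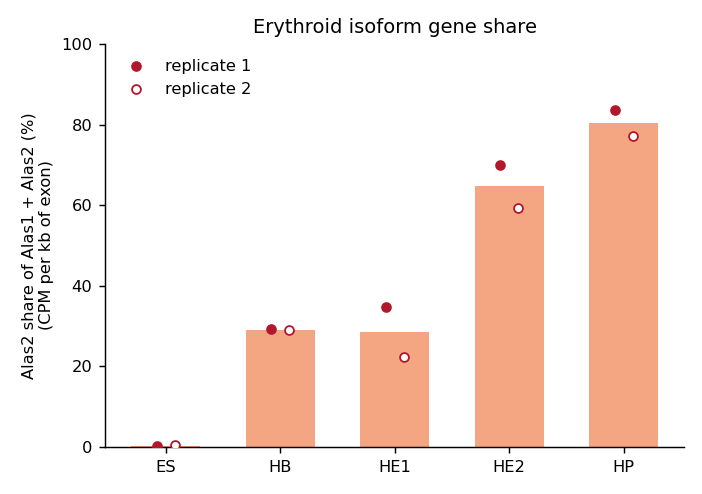
Share of Alas2 in the sum of Alas1 and Alas2, in percent of CPM per kb of exon (y axis), by stage (x axis), with bars for the mean of 2 libraries and points for each library. The mean share was 29.1% and 28.6% in HB and HE1, and 64.7% and 80.4% in HE2 and HP.

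Among the enzymes that follow, Alad, Uros, and Fech, whose proteins act at the second step of the pathway, at the closing of the ring, and at the insertion of iron, showed a stepwise course. Fech, on chromosome 18, stood at 30.0 and 28.1 CPM in ES and 30.5 and 30.3 CPM in HB, then at 67.0 and 65.7 CPM in HE1, 95.0 and 94.6 CPM in HE2, and 130 and 134 CPM in HP. Its libraries lay close together within every stage. The step from HB to HE1 was 1.13 ± 0.12 on the log2 scale (edgeR, adjusted p = 0.000137), and the whole difference of HP against ES was 2.18 ± 0.13 (edgeR, adjusted p = 6.19e-07). Alad, on chromosome 4, stood at 16.4 and 17.2 CPM in ES, 23.6 and 25.4 CPM in HB, 31.7 and 30.2 CPM in HE1, 49.6 and 48.6 CPM in HE2, and 72.3 and 47.7 CPM in HP. Only in HP did its libraries separate widely, so that HP and HE2 overlapped. HP exceeded ES by 1.84 ± 0.19 (edgeR, adjusted p = 2.68e-05). Uros, on chromosome 7, stood at 4.47 and 4.19 CPM in ES, 5.62 and 6.85 CPM in HB, 10.3 and 10.7 CPM in HE1, 16.1 and 14.4 CPM in HE2, and 22.0 and 18.4 CPM in HP. No neighbouring stages overlapped, and HP exceeded ES by 2.22 ± 0.21 (edgeR, adjusted p = 1.36e-05).

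Cpox and Urod, which encode coproporphyrinogen oxidase and uroporphyrinogen decarboxylase, act in turn in the pathway and shared a course with a dip in HE1. Cpox stood at 46.6 and 46.4 CPM in ES, 75.6 and 93.9 CPM in HB, 52.3 and 46.4 CPM in HE1, 88.2 and 86.5 CPM in HE2, and 139 and 98.8 CPM in HP. Urod stood at 28.6 and 27.6 CPM in ES, 40.6 and 53.7 CPM in HB, 27.5 and 24.5 CPM in HE1, 44.5 and 50.8 CPM in HE2, and 72.2 and 52.6 CPM in HP. In both genes the HE1 libraries lay below all HB, HE2, and HP libraries. Cpox fell by 0.78 on the log2 scale from HB to HE1 (SE 0.18, edgeR adjusted p = 0.0086) and Urod by 0.86 (SE 0.19, edgeR adjusted p = 0.00782). Without HB replicate 2 these values were -0.66 (edgeR, adjusted p = 0.0672) and -0.69 (edgeR, adjusted p = 0.0690). From HE1 to HP, Cpox rose by 1.27 ± 0.18 (edgeR, adjusted p = 0.00105) and Urod by 1.26 ± 0.20 (edgeR, adjusted p = 0.0015).

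Ppox, which encodes protoporphyrinogen oxidase, the enzyme before Fech in the pathway, had the smallest ratio of its highest to its lowest stage mean after Alas1 (1.94 for Ppox and 1.79 for Alas1). It stood at 24.9 and 26.3 CPM in ES, 27.3 and 21.1 CPM in HB, 21.5 and 17.6 CPM in HE1, 31.1 and 20.5 CPM in HE2, and 34.5 and 41.4 CPM in HP. All stages but HP overlapped with a neighbour in the order of means. HP exceeded HE1 by 0.96 ± 0.23 (edgeR, adjusted p = 0.0128), which did not pass without HE1 replicate 2 (edgeR, adjusted p = 0.0883) or without HP replicate 2 (edgeR, adjusted p = 0.0602).

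Tfrc (ENSMUSG00000022797, chr16:32608920-32632794, plus strand, mm10) stood at 854 and 880 CPM in ES, 407 and 459 CPM in HB, 104 and 80.3 CPM in HE1, 236 and 256 CPM in HE2, and 384 and 336 CPM in HP. No stages overlapped. Its mean fell 9.39-fold from ES to HE1 and then rose to a level in HP below that of HB. Tfrc fell by 1.00 on the log2 scale from ES to HB (SE 0.17, edgeR adjusted p = 0.000939) and by 2.23 from HB to HE1 (SE 0.18, edgeR adjusted p = 1.96e-05). It rose by 1.41 ± 0.17 from HE1 to HE2 (edgeR, adjusted p = 0.0014) and by 1.96 ± 0.17 from HE1 to HP (edgeR, adjusted p = 0.000105), or 3.90-fold. HP remained below ES by -1.27 ± 0.17 (edgeR, adjusted p = 0.000137). These calls held without each of the 10 libraries in turn.

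Per length, Tfrc was the highest of the 9 in 4 stages, at 140 CPM per kb of exon in ES, 70.0 CPM per kb in HB, 39.7 CPM per kb in HE2, and 58.2 CPM per kb in HP. In HE1 it stood at 14.9 ± 2.74 CPM per kb (SD, n = 2), beside 16.5 ± 0.589 CPM per kb for Alad, a difference within the spread of the libraries. Alas2 was the lowest of the 9 in ES, at 0.0156 CPM per kb. In HB it stood at 1.69 ± 0.167 CPM per kb (SD, n = 2), beside 1.74 ± 0.242 CPM per kb for Uros, a difference within the spread of the libraries. In HE1 it stood at 3.06 ± 1.45 CPM per kb (SD, n = 2), beside 2.94 CPM per kb for Uros, and in HE2 at 10.6 ± 4.34 CPM per kb. In HP it had reached 20.5 CPM per kb, and 3 genes lay above it, namely Tfrc, Alad, and Urod. In HP its spread of 7.40 CPM per kb (SD) covered the distance to Urod (24.1) and Cpox (17.9). Alas1 was the lowest of the 9 in HP at 4.76 CPM per kb. The order of genes within a stage depends on the annotated exon lengths, which need not be those of the RNA present.

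**Figure D3:**
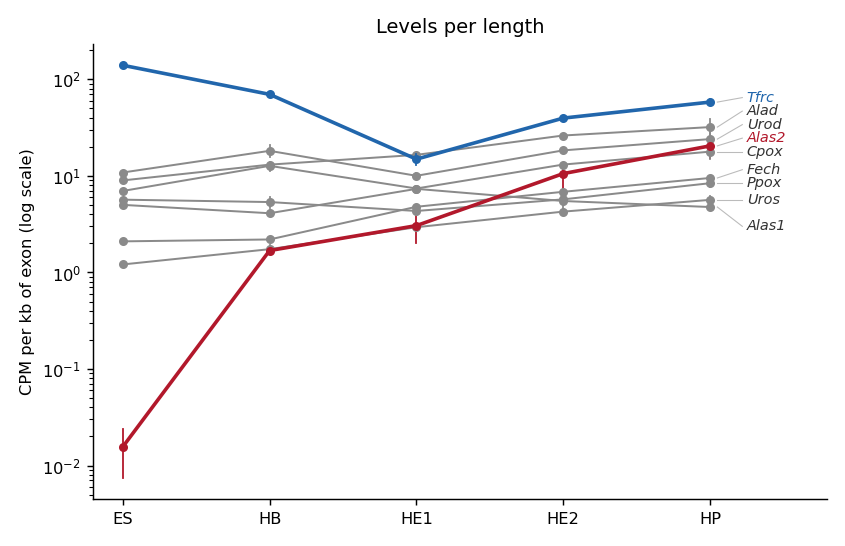
Mean CPM per kb of exon (y axis, log scale) of the 9 genes at the 5 stages (x axis), with vertical lines between the 2 libraries, Tfrc in blue, Alas2 in red, and the 7 other enzymes in grey. Tfrc falls to 14.9 in HE1 among the enzymes, and Alas2 climbs from 0.0156 in ES to 20.5 in HP.

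Counted over the 9 genes, HB against ES gave 4 genes higher (Alas2, Alad, Urod, and Cpox) and 1 lower (Tfrc), where 17.8% of all tested genes were higher and 22.6% lower. Without ES replicate 1, ES replicate 2, or HB replicate 2, 2 genes, Alas2 and Cpox, were higher. Alad (0.54 ± 0.19, edgeR adjusted p = 0.0416) also lost its call without HB replicate 1 or either HE2 library. With at least 2-fold required, 1 gene was higher, Alas2, and 1 lower, Tfrc, where 11.5% and 17.3% of tested genes were. HE1 against HB gave 3 higher (Alas1, Uros, and Fech) and 3 lower (Urod, Cpox, and Tfrc), where 17.5% and 14.8% of tested genes were called, so that the genes were divided at this step. Without HB replicate 2, 1 gene, Tfrc, was lower. Uros lost its call without any 1 of the ES and HB libraries. With at least 2-fold required, 1 gene was higher, Fech, and 1 lower, Tfrc, where 12.7% and 8.19% of tested genes were.

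HE2 against HE1, the gain of CD41, gave 6 higher (Alas2, Alad, Urod, Cpox, Fech, and Tfrc) and 0 lower, where 6.12% of tested genes were higher and 7.12% lower. The median log2 fold change of the 9 was 0.67, beside -0.08 over all tested genes. This count was the least stable, since 1 gene, Tfrc, passed without HE1 replicate 2 and 2 passed without HE2 replicate 2, with the log2 fold changes of the 9 genes keeping their signs. Alad also lost its call without HE2 replicate 1 or any 1 of the ES and HB libraries, and Fech without either ES library. With at least 2-fold required, Alas2 and Tfrc were higher, where 3.26% of tested genes were higher and 5.39% lower. The summed erythroid genes below and the ES cell and endothelial markers above differed between the HE1 libraries as well. HP against HE2 gave 0 genes in edgeR, over the 9 and over all genes (0.0% in either direction). At an unadjusted p under 0.05, 2.97% of all genes were higher and 4.93% lower, and among the 9, 5 were higher and 0 lower. limma-voom called 39 genes higher and 27 lower over all genes (0.173% and 0.119%), none of them among the 9. DESeq2 called 154 higher and 311 lower (0.682% and 1.38%), of which Fech (DESeq2, adjusted p = 0.0112) and Tfrc (DESeq2, adjusted p = 0.0433) were among the 9.

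HP against HE1 spans the endothelial to haematopoietic transition and gave 8 genes higher and 1, Alas1, lower, where 11.0% of tested genes were higher and 13.9% lower. The median over the 9 was 0.99, beside -0.02 over all tested genes. Of the 7 enzymes other than Alas2, 6 rose by 0.94 (Uros) to 1.27 (Cpox) on the log2 scale, a narrow range beside 1.96 for Tfrc and 2.75 for Alas2. With a change of at least 2-fold also required, 4 were higher, namely Alas2, Urod, Cpox, and Tfrc, and 0 lower, where 5.35% of tested genes were higher and 11.2% lower. Without HP replicate 1, Alad (0.64, edgeR adjusted p = 0.0511) and Uros (0.83, edgeR adjusted p = 0.0714) did not pass. HP against ES gave 6 higher and 1, Tfrc, lower, where 24.1% and 27.5% of tested genes were called. Alas1 and Ppox did not pass there. For Ppox the value was 0.57 (edgeR, adjusted p = 0.0555), and it passed without HE1 replicate 1 (edgeR, adjusted p = 0.0481) or without HE2 replicate 1 or 2 (edgeR, adjusted p = 0.0296 and 0.0292). The 7 genes called there also changed by at least 2-fold, where 16.7% and 21.9% of tested genes were called.

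**Figure D4:**
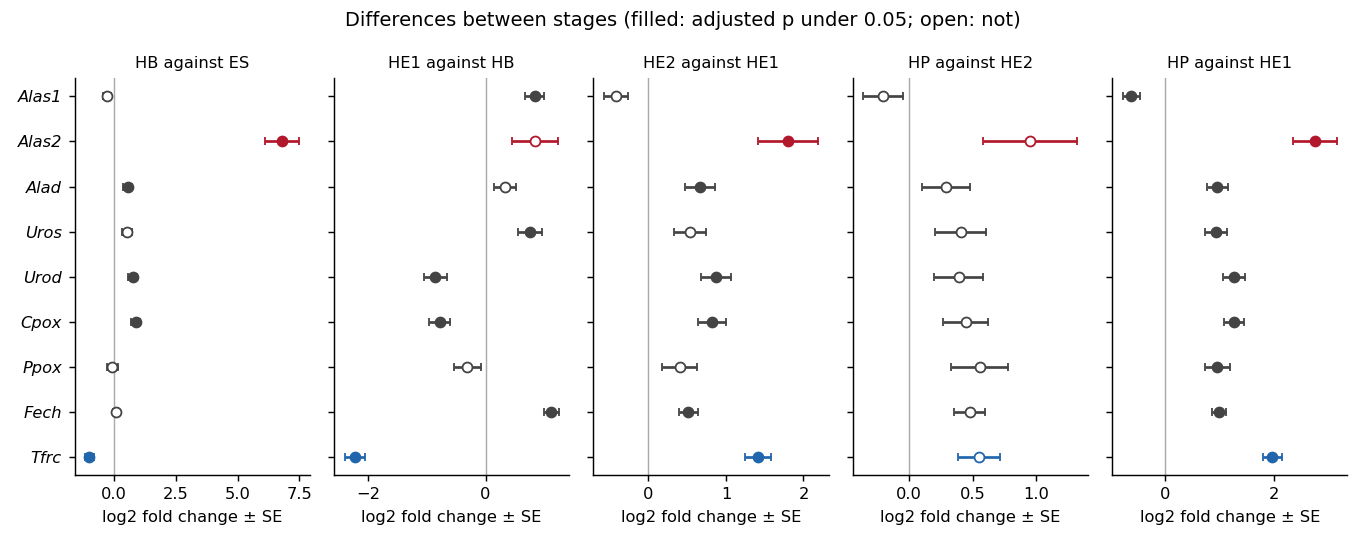
Log2 fold change with its SE (x axis, each panel on its own scale) of the 9 genes (y axis) in 5 comparisons of stages, with filled points where the edgeR adjusted p was under 0.05. The Alas2 points against ES depend on the prior count and are no measured fold. In HP against HE1 all 9 points are filled and Alas1 alone lies below 0.

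Other genes of the pathway were described from lists chosen with earlier results of these data known. Of 12 genes for mitochondrial transport in heme synthesis, 6 rose and 0 fell from HE1 to HP, where 11.0% of all tested genes were higher and 13.9% lower. Among them were Abcb10 (1.66 on the log2 scale), an ABC transporter of the inner membrane, Slc25a37 (1.53), which encodes the iron importer mitoferrin 1, and Abcb6 (1.34). Of 13 genes of iron-sulfur cluster assembly, which Fech requires for its own cluster, 5 rose and 0 fell, beside the same shares of all tested genes, including Iba57 (0.93), Lyrm4 (0.89), and Glrx5 (0.82). The medians of these lists were 0.54 and 0.56, beside -0.02 over all tested genes.

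Genes of iron handling were called in both directions, in counts of 1 to 3 per list that are read beside the 11.0% of all tested genes higher and 13.9% lower in HP against HE1. Of 10 genes of iron uptake other than Tfrc, 3 rose and 2 fell. Tfr2, the second transferrin receptor gene, rose by 3.50 but stood at only 4.79 and 3.50 CPM in HP. Steap3, which encodes the endosomal ferrireductase of the transferrin cycle, stood at 2.94 and 3.63 CPM in HE1 and 26.2 and 15.8 CPM in HP (2.67), after 21.8 and 21.5 CPM in ES. Like Tfrc it was high in ES, low in HE1, and higher again in HP, although its fall from ES (-3.04) was complete by HB. Slc39a8, a metal importer gene, rose by 1.43, while Hfe (-2.42) and Slc39a14 (-1.67), another metal importer gene, fell. Of 9 genes of iron storage and export, 2 rose, Ncoa4 (1.28), the cargo receptor for ferritin, and Fth1 (0.96), which encodes the ferritin heavy chain. Another 2 fell, of which Slc40a1, the gene of the iron exporter ferroportin, went from 99.1 and 111 CPM in HE1 to 15.5 and 25.5 CPM in HP (-2.36). Of 8 genes of heme export, uptake, and breakdown, 2 rose, Blvrb (1.65) and Slc48a1 (1.37), and 1 fell, Hmox1 (-1.54), which encodes the inducible heme oxygenase. The iron regulatory protein genes Aco1 (0.05) and Ireb2 (0.06) did not pass between HE1 and HP.

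Among 14 tested regulators of heme synthesis genes, 6 rose and 2 fell from HE1 to HP, where 11.0% of all tested genes were higher and 13.9% lower. Gata1, the erythroid and megakaryocytic GATA factor, stood at 5.55 and 2.41 CPM in HE1, 24.5 and 38.5 CPM in HE2, and 75.8 and 65.7 CPM in HP (4.17). Klf1, an erythroid zinc finger factor gene, stood at 3.70 and 2.87 CPM in HE1 and 42.6 and 28.0 CPM in HP (3.43). Nfe2, which encodes a bZIP subunit, rose by 4.55, and Epas1 (-3.31) and Maff (-1.70) fell. Bach1, whose protein is a heme-binding repressor, did not pass (0.13). In HB, where Alas2 was first above the floor, Gata1 (2.05), Nfe2 (3.51), and Epor (1.62) were already higher than in ES, while Klf1 (-0.17) did not pass. From ES to HB, 7 of the 14 tested regulators rose and 1 fell, where 17.8% of all tested genes were higher and 22.6% lower. Epor was picked from the erythroid genes after its value was seen. Of 16 tested erythroid genes, 3 rose and 2 fell at this step.

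Erythroid genes moved with Alas2 from HE1 on, but not at the step into HE1. From HB to HE1, 14 of 16 tested erythroid genes rose and 1 fell, where 17.5% of all tested genes were higher and 14.8% lower. Their median log2 fold change was 4.38, while Alas2 (0.85) did not pass. Of 16 tested erythroid genes, 15 rose and 0 fell from HE1 to HP, where 11.0% of all tested genes were higher and 13.9% lower. Among the 15 were Hba-a2 (5.27) and Hbb-bh1 (3.33). Hba-a1 and Hba-a2 are near-identical copies, so their separate counts are uncertain. Hbb-bh1, an embryonic globin gene, stood at 4.60 and 4.54 CPM in HB, 279 and 136 CPM in HE1, and 2622 and 1554 CPM in HP. In HB, where Alas2 had 114 and 154 counts, Hba-a1 stood at 0 and 0.0563 CPM. The sum over the 17 erythroid genes in the tables was 87.8 and 88.8 CPM in ES, 38.0 and 34.6 CPM in HB, 647 and 327 CPM in HE1, 2561 and 1949 CPM in HE2, and 5432 and 2970 CPM in HP. A sum is weighted to its highest genes. From ES to HB it fell, although 10 of the 16 tested genes had a positive log2 fold change (median 1.32).

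The library with the larger erythroid sum was also the one with more Alas2 in HE1, HE2, and HP, but not in HB. Replicate 1 exceeded replicate 2 by 1.98-fold, 1.31-fold, and 1.83-fold in the erythroid sum and by 2.00-fold, 1.82-fold, and 1.69-fold in Alas2. Gata1 and Klf1 were higher in replicate 1 in HE1 and HP. In HE2 they were higher in replicate 2, at 24.5 and 38.5 CPM for Gata1 and 13.9 and 17.7 CPM for Klf1. Of the 9 genes, 8 were higher in replicate 1 in HE1 and 7 in HE2. In HP, 7 of the 9 genes were higher in replicate 1, all but Ppox and Fech. Genes of other blood cells moved between HE1 and HP as well, since 6 of 6 tested megakaryocyte genes and 5 of 6 tested myeloid genes rose, beside 11.0% of all tested genes. Their summed CPM in HP was 1611 and 1162 for megakaryocyte and 293 and 156 for myeloid genes, beside 105 and 75.3 and 16.3 and 19.1 in HE1. The part of such cells in the rise of the 8 genes was not tested.

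**Figure D5:**
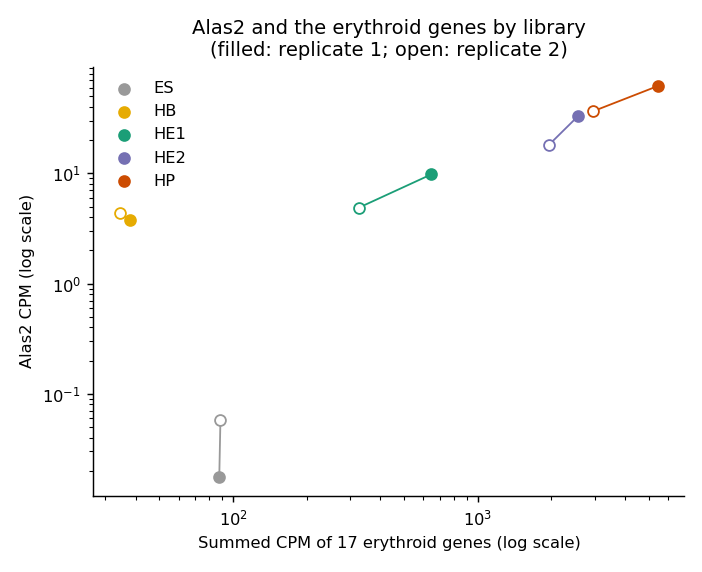
Alas2 CPM (y axis, log scale) against the summed CPM of 17 erythroid genes (x axis, log scale) in the 10 libraries, coloured by stage, with filled points for replicate 1, open points for replicate 2, and lines joining the libraries of a stage. Both HB libraries have Alas2 at 3.77 and 4.34 CPM with an erythroid sum of 38.0 and 34.6 CPM, below the sum in ES. The sum is weighted to its highest genes, and 10 of the 16 tested erythroid genes had a positive log2 fold change in HB against ES.

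Finally, the genes most like Alas2 and Tfrc in their course were named by the Pearson correlation of log2 CPM over the 10 libraries, among 12235 genes. The libraries share their stages in pairs, so these values are descriptions. For Alas2 they were Gypc (r = 0.993), which encodes glycophorin C of the red cell membrane, Tmem164 (0.992), Trim68 (0.992), Vps37b (0.992), and Ifnar2 (0.990). Gypc stood at 0.357 CPM in ES and 112 CPM in HP (stage means). For Tfrc they were Dhodh (0.981), which encodes an enzyme of pyrimidine synthesis, Pym1 (0.978), Suz12 (0.975), a Polycomb subunit gene, Rabggta (0.975), and Abraxas1 (0.975). Dhodh stood at 67.7 CPM in ES, 25.8 CPM in HE1, and 44.3 CPM in HP. Among the members themselves, Alas2 correlated with Alad at 0.928, with Uros at 0.920, and with Alas1 at 0.117, and Tfrc with the other 8 members at -0.735 (Alas1) to 0.394 (Ppox). Alas2 and Tfrc correlated at -0.560.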

How the data were processed

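The authors removed rRNA reads with RiboDetector, trimmed with Trimmomatic, used HISAT2 (v2.2.1) for alignment to mm10, and counted read pairs on exons with featureCounts (v2.0.1, reverse-stranded, Ensembl 102, a pair over several genes counted on each). These deposited counts are not normalized. The authors also deposited a matrix with 1 expression score per stage, used here only to find the members. Counts were scaled with TMM, filtered with filterByExpr (22596 genes kept), and fitted in edgeR (v4.0.16, R v4.3.3) over all 10 libraries with stage as the only term. The quasi-likelihood F test was used with Benjamini-Hochberg adjustment over all tested genes, and genes were called at an adjusted p under 0.05. The fit was tested on simulated data. Log2 CPM used a prior count of 2. The members and lists were chosen with earlier results of these data known. Named genes were the members, up to 3 called genes per list and direction with the largest change in HP against HE1 (at least 1 CPM in a stage), sort antigens, globin genes, Gata1, Klf1, and the 5 genes most correlated with Alas2 and with Tfrc (at least 9 CPM in a stage). Aco1, Ireb2, Bach1, and Epor were named after their values were seen. Some genes that these rules name are not reported here. Sequences came from RefSeq and GENCODE M21. Alternatives were limma-voom (v3.58.1), DESeq2 (v1.42.0), total counts, no filter, only 4 libraries, a replicate block, a 2-fold minimum, and leaving out each library.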

Additional observations from a re-analysis of the deposited data

How the results depend on the processing

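Of 918 values of members under the alternatives, 835 kept their direction and their side of the threshold, 78 changed the call, and 5 reversed. The reversed values were small and did not pass: Ppox in HB against ES was 0.0029 with total counts and ranged from -0.25 to 0.097 with a library left out (positive without HB replicate 2), Alas1 in HP against ES was 0.0096 with total counts and ranged from -0.16 to 0.0069 (positive without HP replicate 2), and Alad in HP against HE2 ranged from -0.044 (without HP replicate 1) to 0.56. With at least 2-fold required, members called higher were 1 in HB against ES, 1 in HE1 against HB, 2 in HE2 against HE1 and 4 in HP against HE1, and members called lower were 1 in HE1 against HB and 0 in HP against HE1, since the threshold is stricter. With only the 4 libraries compared, 2 were higher in HE2 against HE1. With total counts, 1 was lower there. In HP against HE2, 2 were higher with DESeq2 and 1, Alas2, without a filter. With each library left out in turn, members called higher were 2 to 4 in HB against ES and 1 to 6 in HE2 against HE1, and members called lower were 1 to 3 in HE1 against HB and 0 to 1 in HP against HE1. The lone library of a stage is then assumed to vary like the others. Ppox in HP against ES, not called, passed with limma-voom (adjusted p = 0.0393), total counts (edgeR, adjusted p = 0.0420), no filter (edgeR, adjusted p = 0.0285), and only the 4 libraries compared (edgeR, adjusted p = 0.00987). Uros in HB against ES, not called, passed with total counts (edgeR, adjusted p = 0.0369) and with only the 4 libraries compared (edgeR, adjusted p = 0.0291), and Uros in HE1 against HB did not pass with the latter (edgeR, adjusted p = 0.0710). Alad in HB against ES did not pass with limma-voom (adjusted p = 0.0574). With total counts, Alas1 passed (edgeR, adjusted p = 0.0439) and Fech did not (edgeR, adjusted p = 0.0522) in HE2 against HE1. Deviations of same-numbered libraries correlated at -0.32 to 0.21 between stages. That check compares equal numbers only, so it cannot exclude that libraries of different stages came from one culture. The labels do not state such sharing, and the main fit had no term for it. A replicate block lost the calls of Alad in HB against ES (0.55, edgeR adjusted p = 0.0541) and of Alad (0.67, edgeR adjusted p = 0.0626) and Fech (0.52, edgeR adjusted p = 0.0508) in HE2 against HE1. Apart from what these alternatives change by construction, the cause was not tested. Depth limits the ES value of Alas2, which rests on 3 counts. Each stage has 2 libraries, which limits every test.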
